A study of Mus musculus with 4 samples.

Results

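Imprinted genes are transcribed mainly from the copy inherited from 1 parent, and 34 of them were followed in RNA sequencing of mouse embryonic stomachs at stage E15.5. They were taken by gene symbol from a list of known mouse imprinted genes. That list was chosen with earlier results of these data known. All 34 had a row among the 51098 genes of the deposited table. The samples were Fgf9_null stomachs (Fgf9LacZ/LacZ), numbered 2 and 3, and Fgf9_het stomachs (Fgf9LacZ/+), also numbered 2 and 3. Every sample therefore carried at least 1 LacZ allele of Fgf9, the gene of a secreted fibroblast growth factor. The sample titles call the Fgf9_het stomachs WT, although no sample had 2 normal copies of Fgf9 by the genotype field. Whether a sample was 1 stomach or a pool is not given in the sources used here.

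At most imprinted genes, imprinting rests on DNA methylation that is laid down differently in egg and sperm and kept on 1 parental copy throughout development. Imprinted genes sit in clusters, each governed by an imprinting control region, and long non-coding RNAs of the cluster often silence protein-coding neighbours on the same chromosome. Many of the genes act on fetal growth, with paternally expressed growth promoters such as Igf2 set against maternally expressed growth restrainers such as Igf2r, Cdkn1c and Grb10. Of the members here, 12 are known to be expressed from the maternal allele and 20 from the paternal allele. For Ddc and Gnas the allele depends on the isoform. These alleles are background: the table gives 1 total per gene, so neither allelic origin nor imprinting itself was measured.

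Total estimated counts per column were 19537211 and 22713416 under Fgf9_null, and 19269851 and 22425865 under Fgf9_het. Columns with the same number held the same library under both labels. For the 34 imprinted genes, replicate 2 of Fgf9_null and replicate 2 of Fgf9_het differed by at most 64 reads in any gene, and 16 genes had counts equal within 0.001 reads. The replicate 3 columns differed by at most 98 reads, and 12 genes were equal. A chi-square statistic per degree of freedom over these genes was 0.000293 for replicate 2 and 0.000385 for replicate 3, against 16.6 to 16.7 between columns of different number. Over all genes other than 6 structured and ribosomal RNAs, the statistic was 0.0106 and 0.0245, against 5.39 to 5.41. The structured RNA Rn7s1 was an exception, higher in Fgf9_null by 274014 counts in replicate 2 and 297339 in replicate 3. Without the structured RNAs, the total in Fgf9_null differed from that in Fgf9_het by -0.0452% in replicate 2 and -0.0533% in replicate 3. Averaged over the genes outside those RNAs, the difference between same-numbered columns was below sampling noise, which does not exclude single genes that differ. Each such pair was counted as 1 sample, so the levels below are means over n = 2 libraries, called library 2 and library 3. Their genotypes are not resolved by the table. Fgf9 itself was counted at 133 and 131 reads for Fgf9_null, and at the same 133 and 131 reads for Fgf9_het. Which part of the gene the LacZ allele replaces is not given in the sources used here. Stomach genes were present, with all 14 listed markers at 1 CPM or more in both libraries (CPM is a gene's share of its library's counts times 1000000), led by the protease gene Cym and the smooth muscle genes Myh11 and Acta2.

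The comparison of Fgf9_null with Fgf9_het asked which genes depend on Fgf9, and no imprinted gene was called different between the labels. H19 had 153827 and 179034 reads in Fgf9_null against 153891 and 179132 reads in Fgf9_het. Igf2 had 50563 and 59220 reads in Fgf9_null against 50603 and 59270 reads in Fgf9_het. In reads, the 2 libraries within each label differed far more than the labels did, but their depths differed too. In CPM, H19 averaged 7878 over the Fgf9_null columns and 7987 over the Fgf9_het columns, against 7930 in library 2 and 7935 in library 3. The column totals used for CPM include Rn7s1. edgeR's quasi-likelihood test called 0 of 34 imprinted genes at an adjusted p under 0.05, and 0 of 34 had an unadjusted p under 0.05. Over all 19987 genes tested it called 0, which is 0% of them, and 4 had an unadjusted p under 0.05. DESeq2 called 0 imprinted genes and 3 genes in all, or 0.0101% of those tested, with a median absolute log2 fold of 3.1. A fit blocked on replicate number called 0 imprinted genes and 6 in all, or 0.03%, with a median absolute log2 fold of 1.85. Same-numbered columns were thus not exact copies in every gene, and the cause was not tested. The largest absolute log2 fold of an imprinted gene was 0.00965, for Slc22a18. Apart from such single genes, each library stands under both labels. For the imprinted genes this comparison therefore sets a library against itself and holds no information on the effect of Fgf9.

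Set beside all genes, the 34 listed imprinted genes were widely and in part very highly expressed. A level of 1 CPM or above in each library was found for 33 of 34, or 97.1%, against 32.7% of all genes in the table and 65.8% of protein-coding genes. Their median level was 69.9 CPM, against 8.37 CPM for protein-coding genes. A list of 39 other imprinted genes was close to protein-coding genes, with 66.7% at that level and a median of 9.63 CPM. The high values thus describe the 34 listed genes, not imprinted genes as a class. Both lists were chosen with earlier results of these data known, so these shares are a description and not a test. Together they took 18590 CPM in library 2, against 18791 CPM in library 3, or 1.87 ± 0.0142% of all counts (SD, n = 2). H19 alone made up 42.7% and 42.2% of that sum in libraries 2 and 3, and H19 with Igf2 made up 56.7% and 56.2%. In each library, 14 imprinted genes stood at 100 CPM or above and 28 at 10 CPM or above. The 12 maternal genes summed to 11402 ± 125 CPM, of which 3470 ± 122 CPM lay outside H19, and the 20 paternal genes to 6303 ± 46.1 CPM. In bulk tissue, fewer cells of a type and less RNA per cell cannot be told apart, so a low value may be high expression in few cells.

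**Figure D1:**
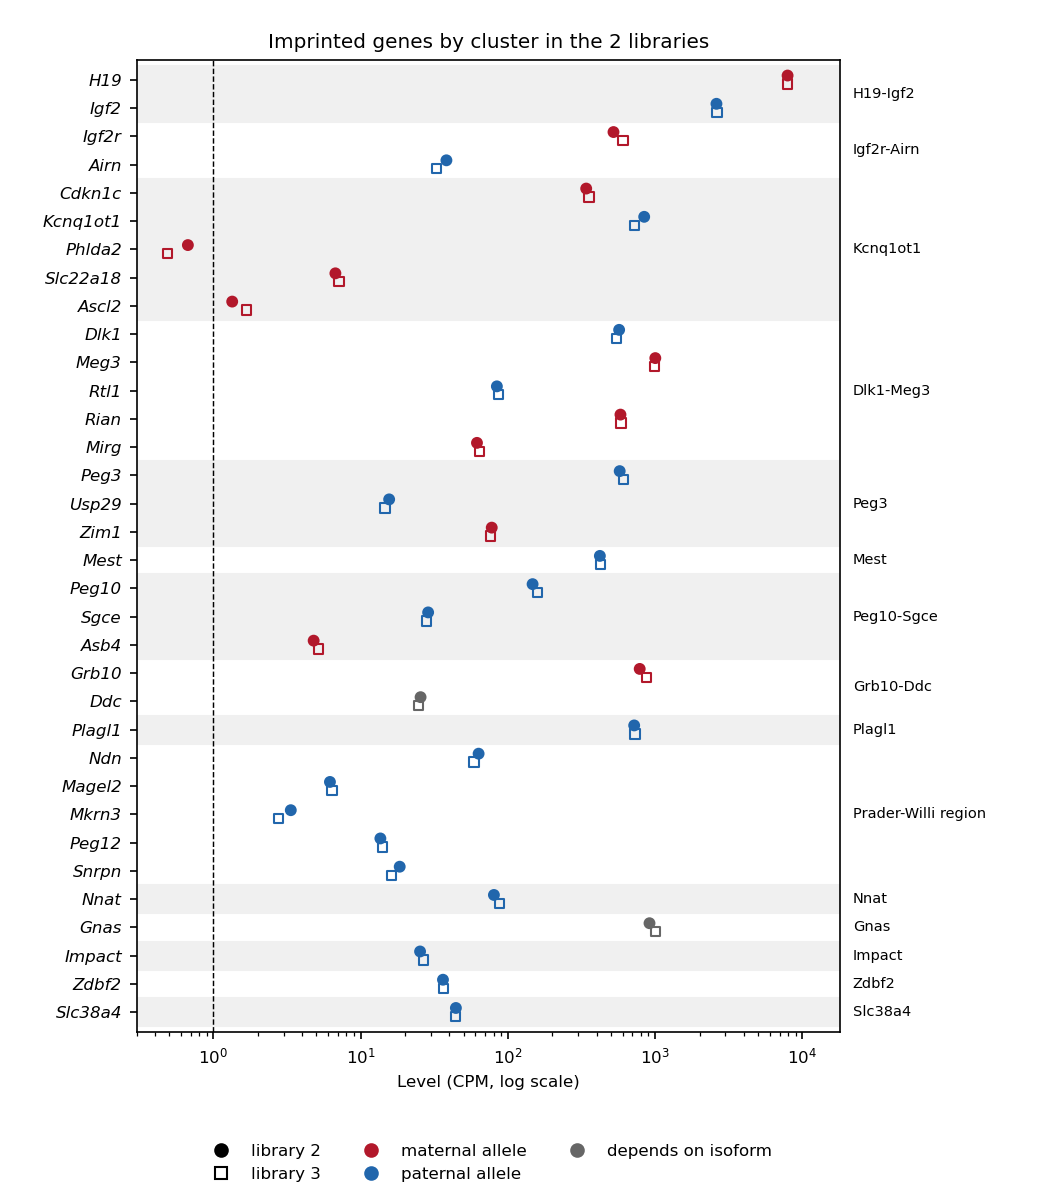
Levels of the 34 imprinted genes in CPM on a log axis, grouped by imprinted cluster, with library 2 as filled circles and library 3 as open squares, coloured by the allele known to be expressed. H19 at 7930 and 7935 CPM lies furthest right, and Phlda2 at 0.67 and 0.487 CPM is the gene left of the dashed line at 1 CPM.

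To compare genes with each other, CPM was divided by the length of their merged exons, since a longer RNA yields more fragments. On this scale H19 stood first at 3225 ± 1.49 CPM per kb, ranking 8 of all 50870 genes with a length. Igf2 followed at 457 ± 2.23 CPM per kb, and Cdkn1c at 171 ± 5.44 CPM per kb. Mest, Dlk1, Plagl1, Grb10 and Gnas came next, between 85.9 and 107 CPM per kb. Neighbours in this middle stretch lay close together: Plagl1 at 92.7 ± 0.973 and Grb10 at 91 ± 6.51 CPM per kb differed by less than their spread. Per kb of the longest transcript Gnas was at 243 and Cdkn1c at 183 CPM per kb, so that Gnas stood above Cdkn1c on that measure. At the low end Phlda2 stood at 0.516 ± 0.115, Usp29 at 0.837 ± 0.0397 and Ascl2 at 0.932 ± 0.15 CPM per kb. Usp29 and Ascl2 too lay within their spread of each other, although per kb of the longest transcript Usp29 was at 2.01 and Ascl2 at 0.942 CPM per kb. The top 1000 genes per length held 13 imprinted genes, and the top 100 held 2.

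**Figure D2:**
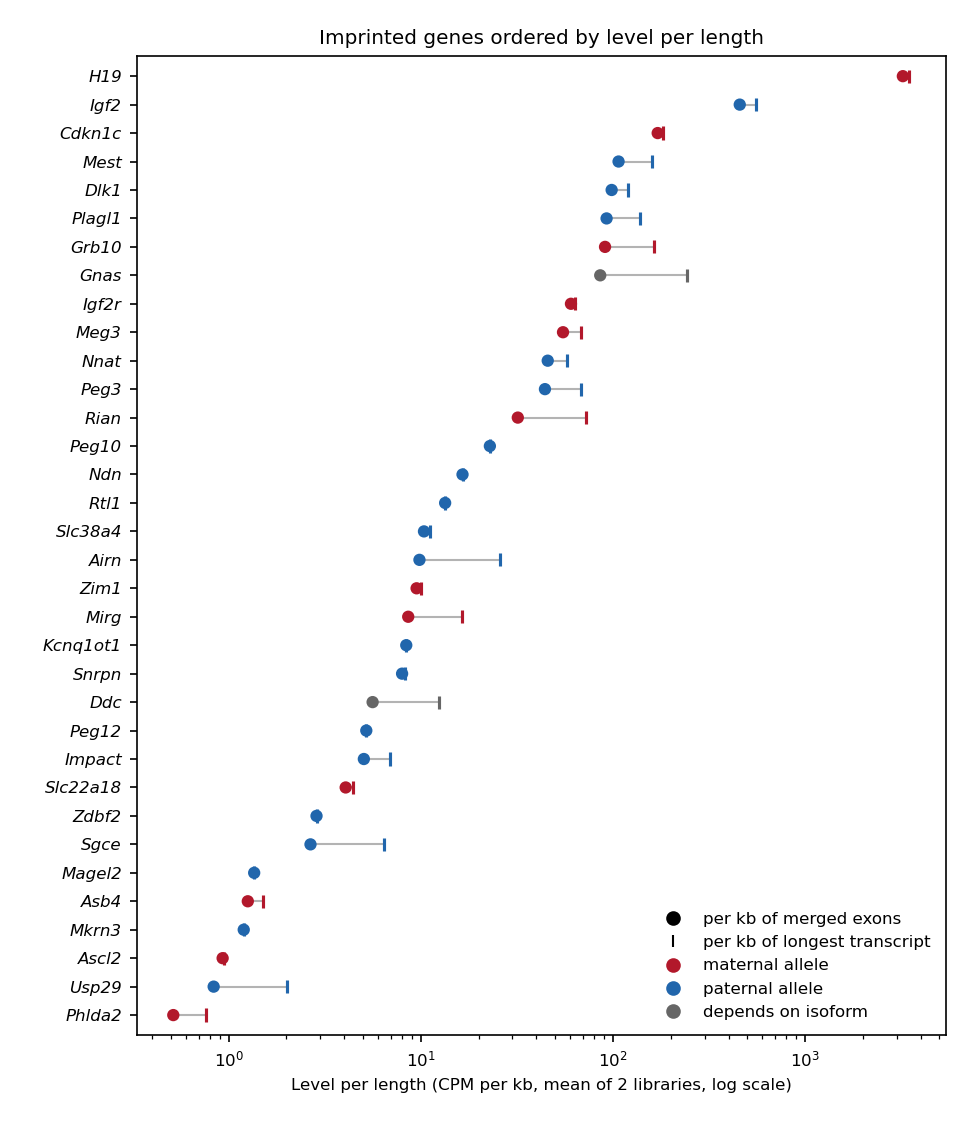
Level per length of the 34 imprinted genes in CPM per kb on a log axis, as the mean of 2 libraries, per kb of merged exons (circles) and per kb of the longest transcript (ticks). The order runs from H19 at 3225 to Phlda2 at 0.516 CPM per kb of merged exons, and Gnas, Airn, Usp29 and Sgce shift most between the length measures.

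The H19-Igf2 cluster on distal chromosome 7 held the most abundant members of both alleles. H19 (GRCm38 chr7:142575529-142578143, minus strand), a long non-coding RNA from the maternal copy, had 7930 CPM in library 2, against 7935 CPM in library 3. Igf2 (chr7:142650766-142666816, minus strand), a secreted fetal growth factor from the paternal copy, had 2607 and 2625 CPM. Both genes were nearly level between the libraries. Per kb, H19 exceeded Igf2 by 7.08 times in library 2 and 7.03 times in library 3. Igf2os, the antisense gene of Igf2, stood at 33.6 and 34.7 CPM, and its exons overlap those of Igf2 over 98 bases. Without a stated strand setting, reads from such stretches cannot be assigned to a strand, here and for the other overlapping pairs below. On the same strand, Gm49394 shares 3596 bases of exons with Igf2 and had 1.08 and 0.501 CPM. How reads were divided between Igf2 and Gm49394 depends on the authors' counting.

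The Igf2r-Airn cluster on chromosome 17 pairs the receptor that carries IGF2 to the lysosome with the antisense RNA that silences it. Igf2r (chr17:12682406-12769664, minus strand), expressed from the maternal copy in mouse, had 521 CPM in library 2, against 605 CPM in library 3. Airn (chr17:12741311-12860136, plus strand), a paternal transcript that starts inside Igf2r, had 38.2 and 32.7 CPM. Igf2r was thus lower and Airn higher in library 2. Per kb of merged exons Igf2r exceeded Airn by 5.27 times in library 2 and 7.16 times in library 3, and per kb of the longest transcript by 2.11 and 2.86 times. The annotated exons of Airn cover 3.6 kb of its 119 kb span, so reads from the rest of the locus are not in its count. Igf2 exceeded Igf2r per kb by 8.13 and 7.06 times.

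The Kcnq1ot1 cluster, next to H19 and Igf2 on chromosome 7, ranged from one of the most abundant imprinted transcripts to the least. Kcnq1ot1 (chr7:143203458-143296549, minus strand), the paternal long non-coding RNA that silences this cluster, had 842 CPM in library 2, against 724 CPM in library 3. Its annotated length of 93.1 kb puts it at 8.41 ± 0.89 CPM per kb, well down the order. Cdkn1c, which encodes the cell cycle inhibitor p57, had 340 and 356 CPM, and per kb it exceeded Kcnq1ot1 by 18.5 times in library 2 and 22.4 times in library 3. The other maternal genes were low. Slc22a18, a transporter-like gene, had 6.73 and 7.11 CPM, and Ascl2, a transcription factor of trophoblast and intestinal stem cells, had 1.34 and 1.68 CPM. Phlda2, which restrains growth of the placenta, had 13 and 11 reads (exact Poisson 95% intervals 6.92 to 22.2 and 5.49 to 19.7 reads), or 0.67 and 0.487 CPM. Intervals of this kind cover counting error only. Antisense partners of these genes were counted too, Kcnq1 at 15.7 and 17.2 CPM and Gm44732, whose exons overlap Cdkn1c over 625 bases, at 17.2 and 25.6 CPM.

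The promoter windows of these silencing RNAs and of genes at the extremes are shown because they differ widely in CG pairs, the sites of DNA methylation. RefSeq windows on GRCm38.p6 run from 250 bases before a start site to 50 bases after it, and 28 of the 34 genes were matched, with 46 windows among them. The sequences are written on the strand of their own gene, and capitals mark CG pairs. They are Airn (chr17:12741061-12741360), Igf2r (chr17:12769657-12769956), Kcnq1ot1 (chr7:143296498-143296797), Phlda2 (chr7:143502475-143502774) and Usp29 (chr7:6730333-6730632).
Airn: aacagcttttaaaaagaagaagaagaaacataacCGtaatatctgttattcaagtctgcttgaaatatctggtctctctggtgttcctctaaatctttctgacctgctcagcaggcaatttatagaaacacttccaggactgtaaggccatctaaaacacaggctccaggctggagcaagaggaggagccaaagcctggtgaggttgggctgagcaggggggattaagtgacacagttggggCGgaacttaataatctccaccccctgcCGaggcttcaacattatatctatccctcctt
Igf2r: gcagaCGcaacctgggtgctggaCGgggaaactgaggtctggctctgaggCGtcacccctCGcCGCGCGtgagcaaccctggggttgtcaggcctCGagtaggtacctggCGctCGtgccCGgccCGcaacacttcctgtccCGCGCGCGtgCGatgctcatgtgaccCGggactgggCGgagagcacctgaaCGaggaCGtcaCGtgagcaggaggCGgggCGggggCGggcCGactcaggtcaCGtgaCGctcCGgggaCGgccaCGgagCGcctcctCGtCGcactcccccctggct
Kcnq1ot1: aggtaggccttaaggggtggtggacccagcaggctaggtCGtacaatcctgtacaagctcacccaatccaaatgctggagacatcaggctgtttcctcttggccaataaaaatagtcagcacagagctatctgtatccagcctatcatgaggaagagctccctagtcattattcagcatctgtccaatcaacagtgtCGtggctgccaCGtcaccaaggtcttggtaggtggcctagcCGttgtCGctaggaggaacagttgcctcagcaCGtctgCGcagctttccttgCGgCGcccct
Phlda2: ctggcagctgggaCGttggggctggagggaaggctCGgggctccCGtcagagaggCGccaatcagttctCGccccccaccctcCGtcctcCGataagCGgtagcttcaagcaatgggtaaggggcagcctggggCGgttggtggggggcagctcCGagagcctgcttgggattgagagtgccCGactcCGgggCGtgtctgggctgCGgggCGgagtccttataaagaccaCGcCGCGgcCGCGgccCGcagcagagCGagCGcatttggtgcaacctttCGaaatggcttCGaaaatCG
Usp29: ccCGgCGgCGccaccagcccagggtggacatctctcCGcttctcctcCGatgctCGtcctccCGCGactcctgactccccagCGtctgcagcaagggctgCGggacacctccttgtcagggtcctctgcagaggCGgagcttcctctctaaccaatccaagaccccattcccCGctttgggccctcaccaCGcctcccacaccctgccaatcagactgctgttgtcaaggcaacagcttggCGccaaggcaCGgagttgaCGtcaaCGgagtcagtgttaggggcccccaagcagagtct
Airn held 3 CG pairs and Kcnq1ot1 9, while Igf2r held 34, Phlda2 26 and Usp29 17. Phlda2, the lowest of the 34 in level, thus had a window at percentile 83.8 of all windows by CG pairs, and the window of Kcnq1ot1 lay at percentile 55.4. Over the 28 imprinted genes the median window held 10.5 CG pairs, against 7 for the 32851 windows of all genes. At least 15 pairs were found in 18 of 46 imprinted windows, or 39.1%, against 34.6% of all windows. Windows of maternally and paternally expressed genes both had a median of 10 pairs. The letters TATAAA, searched on both strands, occurred in 10 of 46 windows (21.7%), against 13.6% of all windows. GGGCGG, also on both strands and containing a CG pair itself, occurred in 19 windows (41.3%), against 35.7%. Several windows belong to 1 gene and some overlap, so they are not independent, and the methylation of these sites was not measured.

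**Figure D3:**
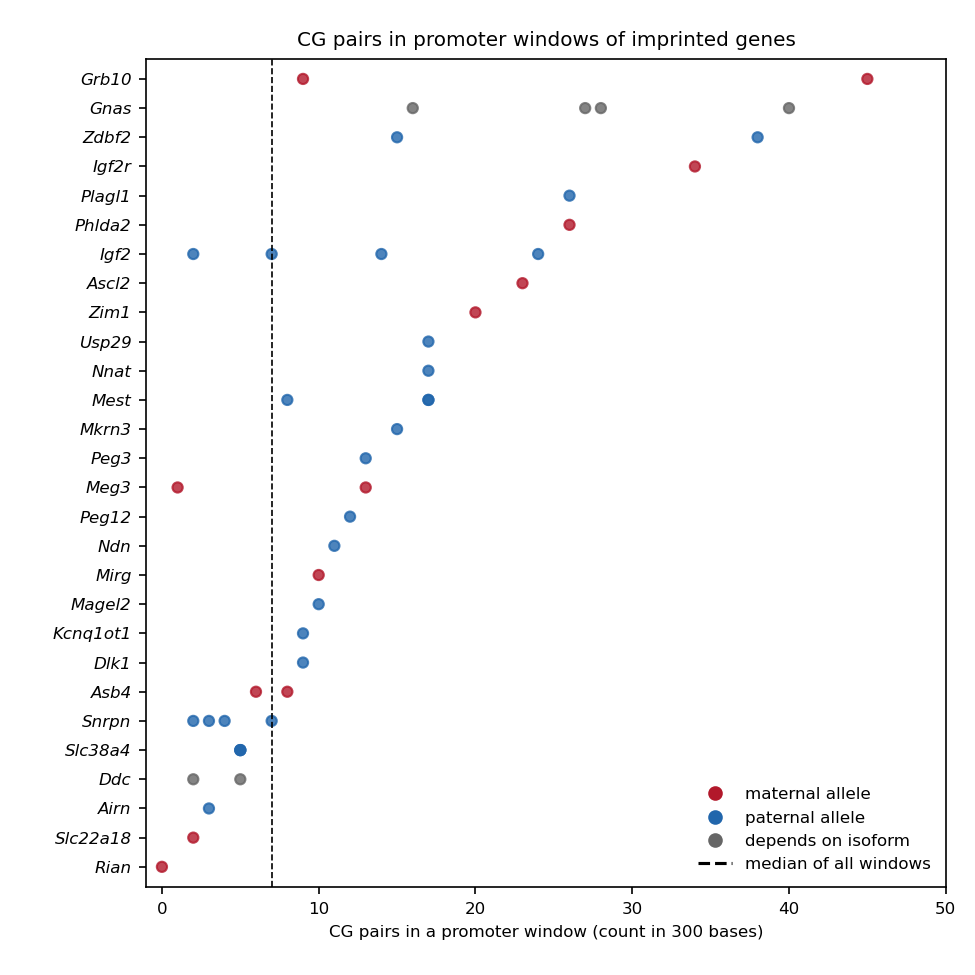
Number of CG pairs in each 300-base RefSeq promoter window of 28 imprinted genes, 1 point per window, coloured by the allele known to be expressed, with the median of all genes' windows as a dashed line at 7. Genes with several windows, such as Igf2 with 2 to 24 pairs, spread along their row, and Rian has a window with 0 pairs.

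The Dlk1-Meg3 cluster on chromosome 12 was expressed throughout, from both alleles' known transcripts. Meg3 (chr12:109541001-109571726, plus strand), a maternal long non-coding RNA, had 1002 CPM in library 2, against 986 CPM in library 3. Rian, a maternal RNA further along that hosts small nucleolar RNAs, had 581 and 586 CPM, and Mirg, which hosts microRNAs, had 61.6 and 63.9 CPM. Each of the 3 maternal RNAs differed by little between the libraries. Of the paternal genes, Dlk1, a membrane protein related to Notch ligands, had 569 and 546 CPM, and Rtl1, a retrotransposon-derived protein known for its role in placental capillaries, had 84.1 and 86.4 CPM. Per kb, Meg3 was at 0.551 and 0.565 times the level of Dlk1, and Dlk1 exceeded Rtl1 by 7.6 and 7.1 times.

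MicroRNA genes lay inside 8 of the imprinted genes, 30 in all, of which 14 were in Mirg. In Rtl1, 6 of 7 lay on the opposite strand, the strand of the maternal transcripts of that cluster. Of their mature sequences 8 are shown, chosen as examples: both of H19, 1 each of Igf2 and Mest, 2 from the strand opposite Rtl1, and the pair in Mirg with a common seed. Capitals mark the seed (bases 2 to 8), and the sequences run 5′ to 3′, from RefSeq on GRCm38.p6.
miR-675-5p: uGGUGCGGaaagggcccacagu
miR-675-3p: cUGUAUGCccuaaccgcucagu
miR-483-3p: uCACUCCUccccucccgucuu
miR-335-5p: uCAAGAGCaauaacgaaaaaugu
miR-127-3p: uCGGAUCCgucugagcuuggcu
miR-433-3p: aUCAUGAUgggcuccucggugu
miR-453: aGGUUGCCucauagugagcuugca
miR-496a-5p: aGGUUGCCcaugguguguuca
The 56 mature sequences in these genes had 55 different seeds, and the 1 shared seed, GGUUGCC, belonged to miR-453 and miR-496a-5p of Mirg. The abundance of a host RNA does not give that of its microRNA: 30 of 34 microRNA rows that overlap imprinted genes had 0 counts in both libraries, Mir675 of H19 among them. A count of 0 allows up to 0.132 to 0.156 CPM, the value of 3 counts in these columns. All 13 small nucleolar RNA rows inside these genes were at 0 as well, and the labels' protocol names no step to retain short RNAs.

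In the Peg3 cluster on proximal chromosome 7, genes that share a promoter region stood far apart. Peg3 (chr7:6703892-6730431, minus strand), a paternal zinc finger gene, had 574 CPM in library 2, against 607 CPM in library 3. Usp29 (chr7:6730578-6967219, plus strand), a paternal gene of the ubiquitin protease family read in the opposite direction, had 15.6 and 14.6 CPM. Their promoter windows have 263 bases in common, with 13 CG pairs, all of them within the Usp29 sequence printed above. Per kb of merged exons Peg3 exceeded Usp29 by 49.8 times in library 2 and 56.3 times in library 3, and per kb of the longest transcript by 31.8 and 36 times. Zim1, a maternal zinc finger gene beyond Peg3, had 77.6 and 76.3 CPM, and Peg3 exceeded it per kb by 4.48 and 4.83 times.

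A similar pair of paternal genes lies on proximal chromosome 6, where Peg10 and Sgce start back to back. Peg10 (chr6:4747306-4760517, plus strand), a retrotransposon-derived gene needed for the placenta in mouse, had 147 CPM in library 2, against 158 CPM in library 3. Sgce (chr6:4674350-4747207, minus strand), which encodes epsilon-sarcoglycan, had 28.7 and 28 CPM. Per kb of merged exons Peg10 exceeded Sgce by 8.18 and 8.97 times, and per kb of the longest transcript by 3.4 and 3.73 times. Asb4, a maternal gene of the same cluster that encodes an ankyrin repeat protein, had only 4.79 and 5.14 CPM. Mest, a paternal hydrolase-fold gene elsewhere on chromosome 6, had 421 and 426 CPM. It overlaps exons of its antisense neighbour Copg2, at 50.6 and 49.2 CPM, over 912 bases.

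The Grb10-Ddc cluster on chromosome 11 and Plagl1 on chromosome 10 held further growth regulators. Grb10 (chr11:11930508-12038683, minus strand), a maternal adaptor that dampens insulin and IGF receptor signalling, had 785 CPM in library 2, against 869 CPM in library 3. Its neighbour Ddc, an enzyme of serotonin and dopamine synthesis, had 25.5 and 24.6 CPM, and Grb10 exceeded it per kb by 15.1 and 17.3 times. Plagl1 (chr10:13060504-13131694, plus strand), a paternal zinc finger transcription factor that regulates other imprinted genes in mouse, had 720 and 730 CPM. Plagl1 was nearly level between the libraries, whereas Grb10 was lower in library 2.

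Genes of the Prader-Willi region on central chromosome 7, all paternal, had the lowest sum of the multi-gene clusters, 105 CPM in library 2, against 98 CPM in library 3. Ndn (chr7:62346569-62350262, plus strand), a MAGE family gene known from neurons, led with 63.2 and 58.8 CPM. Magel2, a second MAGE gene of the region, had 6.18 and 6.38 CPM, and Ndn exceeded it per kb by 12.8 and 11.5 times. The makorin gene Mkrn3 had 65 and 62 reads, or 3.35 and 2.75 CPM. Peg12, of the FRAT family, had 13.6 and 14 CPM. Snrpn, which encodes a spliceosomal protein, had 18.4 and 16.2 CPM, and part of its exons is shared with Snurf at 1.05 and 1.1 CPM and with Gm38393 at 5.09 and 5.63 CPM. How reads were divided among these overlapping genes depends on the authors' counting. Markers of enteric neurons, a cell type of the stomach wall, summed to 452 and 461 CPM, with all 10 at 1 CPM or more in both libraries.

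The remaining imprinted genes stand alone or in small domains. Gnas (chr2:174284320-174346744, plus strand), which encodes the stimulatory G protein alpha subunit and alternative products, had 915 CPM in library 2, against 1005 CPM in library 3. Its row pools products of different imprinting, and its exons overlap antisense exons of Nespas (21.5 and 19.8 CPM) over 988 bases and of Gm20721 (60.1 and 71.5 CPM) over 1469 bases. Nnat, a small membrane protein gene also on chromosome 2, had 80.3 and 87.3 CPM. Zdbf2 had 36.2 and 36.4 CPM, the amino acid transporter gene Slc38a4 had 44.3 and 44 CPM, and Impact, a regulator of the translation kinase GCN2, had 25.3 and 26.6 CPM. Of these, Gnas and Nnat were lower in library 2, and Zdbf2 and Slc38a4 differed least.

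Between the libraries no imprinted gene passed 1.5-fold. Past that fold were 0 of the 33 imprinted genes with 1 CPM or above in each library, against 649 of 16712 genes, or 3.88%, over the whole table. For 33 genes, a count of 0 lies near the share over the whole table. Their median fold in either direction was 1.05, against 1.08 for all these genes, and the 2 sets were not matched on level. The ratio of library 2 over library 3 was 1.17 for Airn (95% counting interval 1.06 to 1.30) and 1.16 for Kcnq1ot1 (1.14 to 1.19). For Dlk1 it was 1.04 (1.02 to 1.07). At the other end, Igf2r was at 0.86 (0.84 to 0.88), Grb10 at 0.90 (0.88 to 0.92) and Gnas at 0.91 (0.89 to 0.93). Ascl2 at 0.80 (0.46 to 1.35) and Mkrn3 at 1.22 (0.85 to 1.76) had ratios further from 1, but their few reads leave a difference not detectable at this depth.

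The counting interval lay above 1 for 3 of 33 imprinted genes, all known as paternally expressed, against 12.7% of all genes at this level. It lay below 1 for 7, namely Igf2r, Grb10, Gnas, Nnat, Peg10, Peg3 and Cdkn1c, against 10.3%. Of these, Nnat, Peg10 and Peg3 are paternal, Igf2r, Grb10 and Cdkn1c maternal, and Gnas depends on the isoform. Paternal genes make up 20 of the 33. The interval narrows with the count, so abundant genes leave 1 more readily. These intervals compare 2 libraries of 1 sample each and give no replicate check. Within all genes at this level, the ratio of Kcnq1ot1 lay at percentile 84.2 and that of Igf2r at percentile 10. That ranking was not matched on read count, and ratios of genes with few reads vary more by counting. It therefore does not show whether either ratio is extreme for a well-counted gene. H19 at 1.00 (0.99 to 1.01) and Igf2 at 0.99 (0.98 to 1.00), the most deeply counted, lay close to level. TMM scaling put H19 at 0.98 and Igf2 at 0.97, below these intervals. Which intervals lie above or below 1 thus depends on the scaling. By side alone, 2 of 11 maternal genes at 1 CPM or above (Meg3 and Zim1) and 9 of 20 paternal genes were higher in library 2, against 9061 of 16712 genes in all. TMM scaling turned Meg3, Zim1 and the paternal Slc38a4 to the other side, totals without structured RNAs turned H19, and the difference between maternal and paternal genes was not tested.

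**Figure D4:**
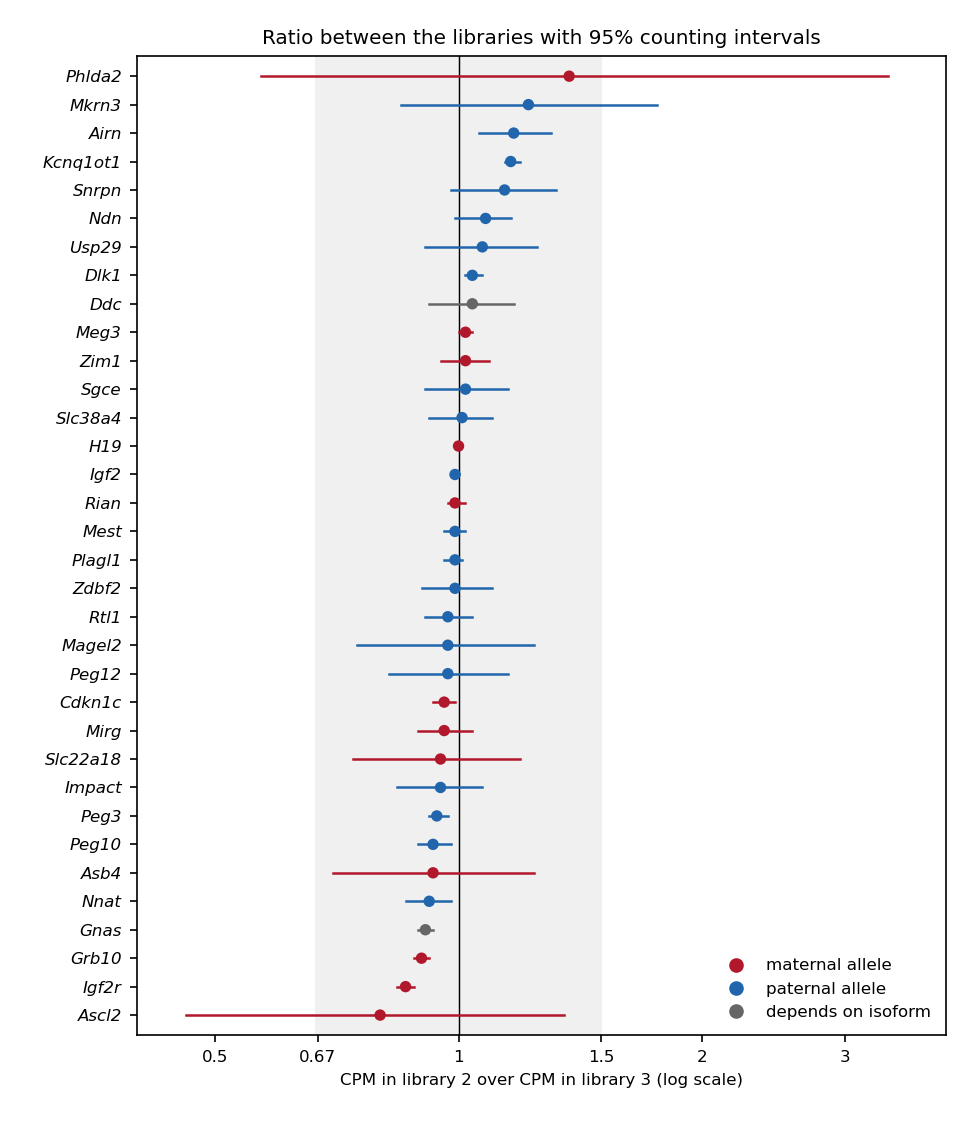
Ratio of CPM in library 2 over CPM in library 3 for each imprinted gene on a log axis, with exact 95% counting intervals as lines and the range within 1.5-fold shaded. Every point lies inside the shading, the intervals of Airn, Kcnq1ot1 and Dlk1 lie above 1, and the widest interval, 0.57 to 3.39, belongs to Phlda2.

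Markers of other tissues differed between the libraries as well. Liver genes summed to 117 CPM in library 2, against 155 CPM in library 3. Of these 14 genes, 9 stood at 1 CPM or above in each library, all 9 were higher in library 3, and none was at 0. Hnf4a, which gut epithelium also expresses, had 57.9 and 61.1 CPM of these sums, and the other 13 summed to 59.6 and 93.8 CPM. Erythroid genes summed to 1154 and 1590 CPM, and the 7 of 10 at that level were all higher in library 3, with Hbb-bh1 at 0 in library 2. Skeletal muscle genes summed to 278 and 237 CPM, mostly from Des, which smooth muscle also expresses. Of 15 muscle genes 8 stood at that level, 7 of them higher in library 2, while Myog was at 0 in library 2 and Myod1 at 0 in library 3. Pancreas genes were nearly absent at 12 and 13.7 CPM, with Ptf1a and Prss1 at 0 in both. Their part in the differences between the libraries was not tested.

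Imprint regulators and further imprinted genes were measured beside the 34. Of 17 imprint regulators, 15 had 1 CPM or above in each library. The most abundant were the DNA methyltransferase gene Dnmt3a at 424 ± 11.6, the demethylase gene Tet3 at 351 ± 19.3 and the co-repressor gene Trim28 at 346 ± 9.67 CPM. Zfp57, a zinc finger protein that protects imprints, stood at 32.5 ± 0.53 CPM and the maintenance methyltransferase gene Dnmt1 at 228 ± 16.5 CPM. The germline gene Dnmt3l had 0.155 CPM in library 2 and 0 in library 3, and Dppa3 had no counts. Of 39 other imprinted genes, 26 had at least 1 CPM in each library, with a median over the list of 9.63 CPM. Cd81 led them at 234 ± 23.1, followed by Ube3a at 124 ± 8.23 and Ppp1r9a at 118 ± 5.12 CPM. Ins2, Slc22a2, Zim2 and Zim3 had no counts.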

How the data were processed

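The authors deposited 1 table with estimated counts for each Ensembl gene, without depth scaling. FastQC 0.10, Trimmomatic 0.33, Salmon 1.8.0, edgeR, GRCm38 and mm10 appear in the submitters' processing notes, with no roles. How transcripts were indexed and summed to genes, and the strand setting, is not given in the sources used here. Per the labels' protocols, ribosomal RNA was removed with RNase H and cDNA was primed with random hexamers. Samples were grouped by genotype and columns matched by title. A further 2 columns without a name were not used.

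The members and lists were chosen with earlier results of these data known. All 34 members were described by cluster, with the 3 most abundant genes of each further list. Zfp57, Dnmt1, single markers and the genes without counts were named after their values were seen. CPM was the count over the column total, averaged over same-numbered columns. For the chi-square, 6 structured and ribosomal RNA genes were left out, and genes entered when both columns together had 10 counts or more. Lengths and positions came from GENCODE M21, which matched 50870 of 51098 genes. Nespas was matched by identifier, as its symbol differs in the table.

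Differences were computed on rounded counts by edgeR 4.0.16 under R 4.3.3, using filterByExpr, TMM factors, the quasi-likelihood test and Benjamini-Hochberg adjustment over all genes, with a threshold of 0.05. DESeq2 1.42.0 was an alternative. Scripts were tested on simulated data. The p-values set the labels against the spread among columns within a label. As each library stands under both labels, that spread is the difference between the libraries, entered under each label. Nothing in the labels says that samples came from separate embryos, so it may be technical. Counting intervals of ratios are exact binomial (SciPy 1.17.1). Like the floor of 3 counts, they cover error from counting alone. The replicate numbers pair columns of 1 library.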

Additional observations from a re-analysis of the deposited data

How the results depend on the processing

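The 34 imprinted genes had 0 calls between the labels under RLE factors, no filter, DESeq2, the replicate block and each left-out replicate. Over all genes the count of 0 became 3 with DESeq2, 6 when replicate number was a block (the pairing is of a library with its own copy), and 1 to 2 without 1 replicate, where the lone column is assumed to vary like the others; the cause was not tested. The block changed no other call. Without the structured RNAs in the totals the summed level was 22522 CPM, and single levels were 1.205 to 1.206 times as high, past 1 SD for 33 of 34. That follows from the smaller totals. Without replicate 2 or 3 the sum was 18590 to 18791 CPM. The median level per length was 14.9 CPM per kb with the longest transcript, against 10.1 with merged exons, since the longest transcript is never the longer of the measures. At a threshold ratio of 5 to 4, 1 imprinted gene, Ascl2, was past the fold between the libraries, against 14.6% of all genes; with TMM or RLE scaling, other totals, 1 label's columns or a minimum of 5 CPM the count at 1.5-fold was 0. TMM and RLE scaling moved all log2 ratios by -0.030 and -0.029, turning the side of Meg3, Zim1 and Slc38a4, and totals without structured RNAs that of H19. Under TMM and under RLE, the ratio of H19 was 0.98 and that of Igf2 0.97, below their counting intervals. At least 5 CPM was reached by 30 imprinted genes, and at least 0.5 CPM by 33. Depth limits Phlda2, Ascl2 and Mkrn3, and 2 libraries limit every comparison.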
